A study of Beta vulgaris subsp. vulgaris with 30 samples.

Results

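In shoots of sugar beet seedlings, 44 genes stood higher after the days of pretreatment with either water or ethanol than before it, and lower again once the seedlings of either pretreatment had been frozen. They were 44 of the 21587 genes counted, and were chosen by these levels themselves. The level used was CPM, the count of a gene divided by the total count of its library and multiplied by 1000000. Group medians with 1 CPM added had to be at least 1.5 times the starting median after both pretreatments. After freezing they had to be at most 0.67 times the median of the matching unfrozen group, and after ethanol at least 0.7 times that after water. The highest group median had to reach 10 CPM and the mean over all libraries had to stay under 2000 CPM. A total of 6256 genes met these level limits, so the 44 made up 0.703% of them. The rises over pretreatment, the falls with freezing and the ratio of ethanol to water are therefore given as descriptions of the members and are not tested.

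The 30 libraries form 5 groups of 6. Seedlings aged 7 days, per the series description, were sampled before pretreatment. Others were sampled after 3 days with the pots standing in water or in 80 mM ethanol, and again after each of these pretreatments followed by freezing overnight at -2.1 to -3.5 °C. All groups share the same species, tissue and growth at 22 °C, and no mutant or transgene is named. The group labels give 2 h beside the freezing temperature. The protocols attached to single samples describe Arabidopsis, with 20 mM ethanol for 6 days and -4.0 °C, whereas the gene identifiers are those of sugar beet, so the series description is followed. Nothing in the labels says that the 6 libraries of a group came from separate cultures, so p-values measure only the spread between these samples.

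Freezing injures shoots when ice grows between the cells and draws water out of them, and plants that meet cold change the transcript levels of a large share of their genes. The seedling shoot also changes with age while its first true leaves grow, so samples taken before and after a pretreatment differ in age as well as in what the roots stood in. A transcript level in whole shoots is the balance of synthesis and decay over all cells. Fewer cells of a type and less RNA per cell cannot be told apart in such samples.

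Total counts were between 3379082 and 17868082 per library, the lowest in ethanol replicate 4. No sampling hour is given, so freezing and the time of day cannot be told apart. Scaling matters for levels against the starting point. With CPM, the median over the 6256 genes of the log2 difference between frozen and starting medians was 0.28 after water and 0.31 after ethanol, and with TMM factors it was 0.03 and 0.04. Levels below are in CPM, and tested changes use TMM factors.

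The 44 genes were part of a larger group that was higher after both pretreatments. Of 472 such genes, 212 stayed within the limits after both freezings, 86 stood higher again after both, and 46 fell below the limit after both; the rest differed between the pretreatments. The 44 members are those 46 less the genes under the floor for ethanol against water, and make up 9.32% of the 472. Over the members, the median ratio to the start was 1.77 after water (range 1.51 to 4.90) and 1.83 after ethanol (1.53 to 6.25). The median ratio of frozen to unfrozen was 0.502 after water (0.0955 to 0.667) and 0.465 after ethanol (0.0928 to 0.669). Over all 6256 genes the same medians were 1.06, 1.08, 1.15 and 1.16. Both the rise and the fall are measured from the same unfrozen libraries, so a high value there adds to both. After ethanol the median was higher than after water in 24 members and lower in 20, with a median ratio of 1.00.

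Most members were of modest level. The mean over the 30 libraries was 5.33 to 1496 CPM with a median of 24.3 CPM, which is near the 23.0 CPM of all 6256 genes. Of the members, 16 averaged under 20 CPM, 23 lay between 20 and 100 CPM, and 5 lay above. Together they held 0.231 to 0.402% of the counts of a library before pretreatment. Their share was 0.475 to 0.560% after water and 0.466 to 0.522% after ethanol, and it was 0.203 to 0.346% and 0.239 to 0.258% in the frozen groups. A RefSeq gene of the beet assembly EL10.2 was matched to 40 of the 44. All 40 are protein coding and carry only a locus number, so no function is given to any member here.

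A minority of the members separated every library of 2 groups. All 6 water libraries lay above all 6 starting libraries in 6 members, or 13.6%, against 3.32% of the 6256 genes. All 6 ethanol libraries did so in 9 members, or 20.5%, against 3.77%. All 6 libraries frozen after water lay below the 6 water libraries in 11 members, or 25.0%, against 4.62%. All 6 frozen after ethanol lay below the 6 ethanol libraries in 16, or 36.4%, against 6.2%. Because the choice of members used these same contrasts, nothing is read from the counts. All 4 separations held in 1 member, Bevul.7G135800, and in 0.176% of the 6256 genes.

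Bevul.7G135800 (chromosome 7, 45431436 to 45432443, plus strand, LOC104899597) is the member for which the smaller of its rise and its fall was largest. It read 2.82 to 10.8 CPM before pretreatment with a median of 5.01. It read 17.1 to 24.1 CPM after water (median 22.0) and 13.0 to 24.3 CPM after ethanol (median 17.1). After freezing it read 1.66 to 8.14 CPM in the water group (median 5.46) and 1.18 to 3.92 CPM in the ethanol group (median 2.35). Every unfrozen pretreated library thus lay above all others, while the libraries frozen after water lay across the range of the starting ones. The counts behind the frozen values were 13 to 96 and 13 to 70 reads.

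**Figure D1:**
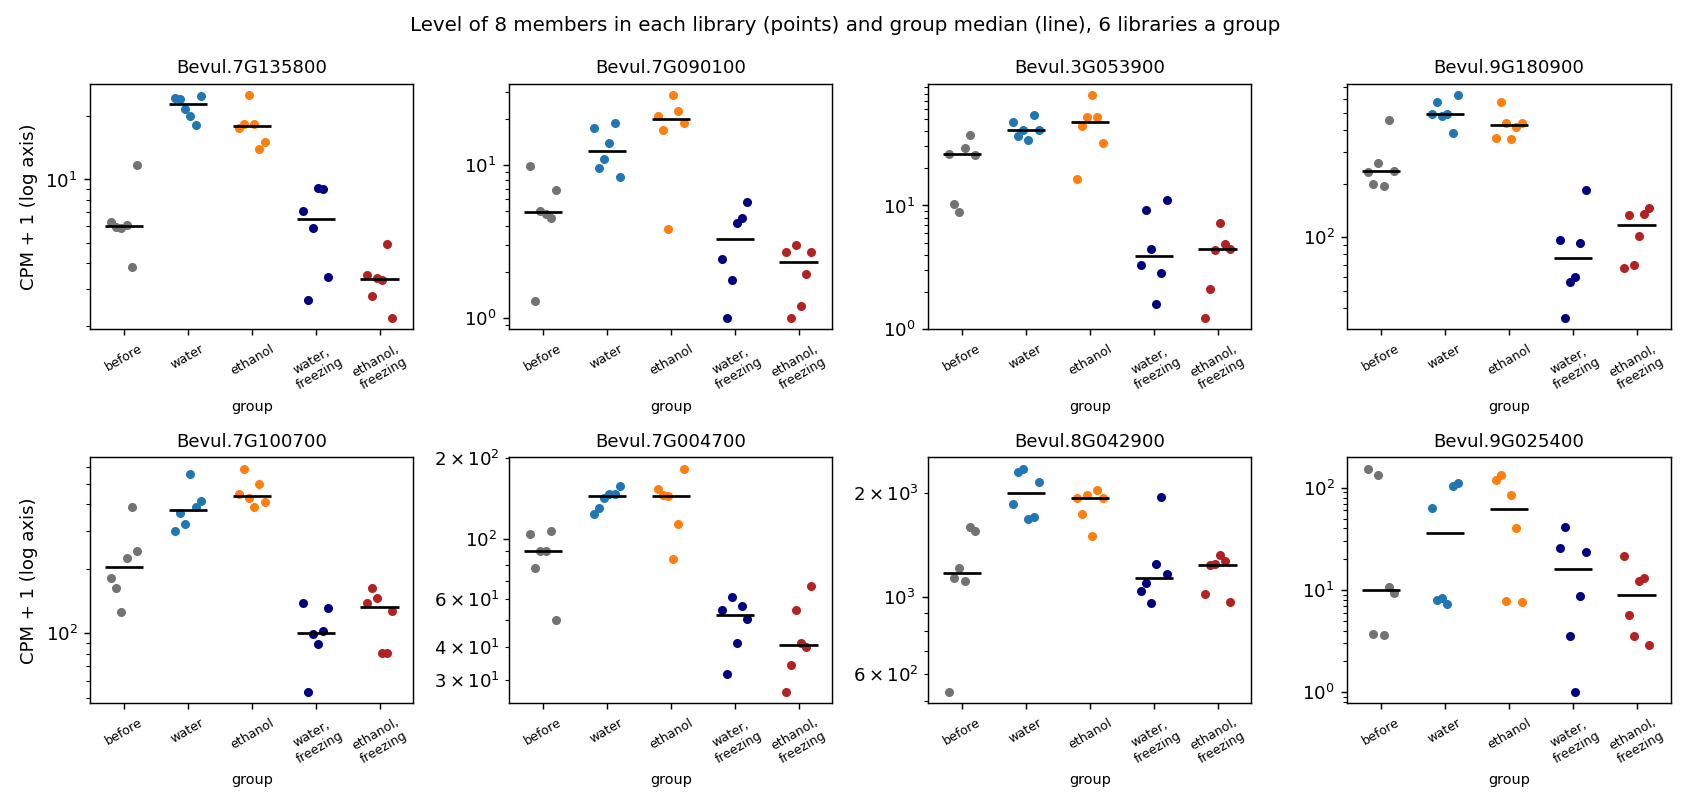
Level of 8 members in each of the 30 libraries, as CPM with 1 added on a log axis; each point is a library, colours are the 5 groups and the line is the group median of 6 libraries. Bevul.7G135800 separates all 12 unfrozen pretreated libraries from the rest, and Bevul.9G025400 spreads widely inside every group.

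The most abundant member was Bevul.8G042900 (chromosome 8, 7186692 to 7188380, minus strand, LOC104900890), with a mean of 1496 CPM. Its 6 starting libraries ranged from 529 to 1599 CPM with a median of 1177. It ranged from 1680 to 2358 CPM after water (median 2007) and from 1506 to 2042 CPM after ethanol (median 1938). Water and starting libraries did not overlap, and the lowest ethanol library lay inside the starting range. The frozen libraries ranged from 962 to 1955 CPM after water (median 1132) and from 969.7 to 1325 CPM after ethanol (median 1239). Replicate 5 of the first of these stood alone at the top, since its other libraries ended at 1245 CPM. Without this gene the members held 0.143 to 0.242% of the counts before pretreatment and 0.275 to 0.344% after water.

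Bevul.9G180900 (chromosome 9, 49413333 to 49413955, minus strand, LOC104904451), the second in abundance, had the deepest drop among the abundant members. Its level was 192 to 453 CPM before pretreatment (median 233), 386 to 629 after water (median 489.5) and 356 to 570.2 after ethanol (median 426). After freezing it was 34.0 to 184 CPM in the water group (median 75.1) and 66.1 to 145 CPM in the ethanol group (median 116.7). All 12 frozen libraries lay below all 18 unfrozen ones. Bevul.7G100700 (chromosome 7, 31147857 to 31149847, minus strand, LOC104898925) had a similar course. It went from 124.9 to 389 CPM at the start to 298 to 555 after water and 389 to 588 after ethanol, and then to 52.0 to 138 and 79.8 to 162 CPM after freezing. Its frozen libraries lay below every unfrozen pretreated library, and the highest of them overlapped the lowest starting library.

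The other 5 of the 8 most abundant members are given by their medians. Bevul.8G152000, on chromosome 8, had medians of 138 CPM before, 211 after water, 233 after ethanol, and 107.04 and 116.6 after the matching freezings. Bevul.3G173600, on chromosome 3, had medians of 75.04, 118.99, 141, 74.2 and 62.6 CPM in the same order. In CPM it thus ended near its start after water and freezing and below it after ethanol and freezing. Bevul.9G223600, on chromosome 9, had medians of 57.2, 118.2, 136, 78.0 and 77.6 CPM, and its starting libraries reached from 18.5 to 126.5 CPM. The remaining pair, Bevul.9G104700 and Bevul.9G104800, are the only members that are next to each other, with 17681 bp between them on the minus strand of chromosome 9. Bevul.9G104700 (35957822 to 35960896) had medians of 87.6, 143, 137, 64.4 and 65.9 CPM. Bevul.9G104800 (35978578 to 35982105) had medians of 114.8, 175, 186, 88.3 and 82.9 CPM. The deviations of this pair from their group means had a Pearson r of 0.54 over the 30 libraries.

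Several members with large ratios had low or scattered levels. Bevul.7G090100 (chromosome 7, 25631460 to 25631789) read 0.300 to 8.82 CPM before, 7.33 to 17.9 after water and 2.81 to 27.8 after ethanol. It read 0 to 4.71 and 0 to 2.01 CPM in the frozen groups, where 1 library of each had no read. Bevul.2G133900, on chromosome 2, had a mean of 5.33 CPM, the lowest of all members. Its medians were 1.56 CPM before and 11.5 after water, while a starting library reached 10.0 CPM and a water library read only 1.23 CPM, so the groups overlapped. A read count of 0 in some library occurred in 3 of the 44 members, and under 10 reads in 7.

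For Bevul.9G025400 (chromosome 9, 4256582 to 4259009, minus strand) the medians and the means disagreed. Its median was 8.98 CPM before, 34.8 after water and 61.4 after ethanol, a ratio of 3.59 and 6.25 by the rule. Its starting libraries reached from 2.58 to 153 CPM and its water libraries from 6.32 to 110.8 CPM, so that the means were 51.4 ± 71.0 and 49.4 ± 49.4 CPM (SD, n = 6 each). In the edgeR model the log2 difference of water from the start was -0.18 ± 0.89 (SE). It was the only member whose fitted water difference was below 0, against 43 above it. All 44 fitted differences of ethanol from the start were above 0, and all 44 were below 0 for each freezing. The choice of members favours these signs, and many differences were uncertain. The model's confidence interval excluded 0 in 27 of the 44 for water against the start and in 29 for ethanol against the start. It excluded 0 in 37 for freezing after water and in 42 for freezing after ethanol. Members were chosen by these contrasts, so the counts are descriptions and not tests.

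Many members sat close to the limits of the rule. Just inside were Bevul.8G085900, with a frozen to unfrozen ratio of 0.669 after ethanol, Bevul.9G195800, with 0.667 after water, and Bevul.9G186600, with a ratio of water to the start of 1.51. Just outside were Bevul.1G123600, with 1.499 for ethanol to the start, Bevul.2G201500, with 0.672 for frozen ethanol, and Bevul.7G071400, with 1.496 for water to the start. With limits of 2 and 0.5 in place of 1.5 and 0.67, 7 genes passed. Leaving out each of the 30 libraries in turn kept 21 of the members every time, and each of the 44 in at least 21 of the 30 repeats. Both ratios to the start were at least 2 in 12 members, and both frozen ratios were at most 0.5 in 19.

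The level of the frozen seedlings against the start is set by the sizes of rise and fall together and not by either limit alone. Noise in the starting and frozen libraries still entered the choice of members, so the tests are not independent of it. The limit on the fall favours frozen levels below the start, and the limit on the rise favours levels above it. Neither the lower calls nor the absence of higher calls is therefore read as a result about the members. The background shares cover all genes tested, also those outside the level limits that the members had to meet. Nothing is concluded from the gap between the shares of members and background. Over 14128 genes tested in edgeR's quasi-likelihood model, with Benjamini-Hochberg adjusted p-values, 10 of the 44 members were lower after water and freezing than before pretreatment, 22.7% against a background of 7.69%. None was higher, against a background of 6.95%. After ethanol and freezing 15 members were lower, 34.1% against a background of 7.96%, and none was higher, against 7.16%. In both comparisons 0 members were higher with an unadjusted p under 0.05, and DESeq2 called 0 higher. Both comparisons use the same starting libraries, and 8 members were lower in both, 2 only in the first and 7 only in the second. The difference between the frozen groups is tested further below. The median log2 change was -0.42 in the first and -0.45 in the second, where it was 0.05 and 0.08 over the 14128 genes. Fitted changes were below 0 in 38 and 36 members. With medians in CPM, 26 and 27 members were below the start, and with TMM-scaled medians 37 and 39, so the direction of the weaker members turns with the scaling.

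The 5 members with the lowest p were the same in both frozen groups except for their order. Bevul.3G053900 (chromosome 3, 6497189 to 6505682, minus strand, LOC104888401) had the largest change. It read 7.91 to 36.0 CPM before pretreatment (median 24.9), 32.6 to 52.5 after water (median 39.7) and 15.3 to 77.2 after ethanol (median 46.6). In the frozen groups it read 0.603 to 10.1 CPM (median 2.88) and 0.2285 to 6.22 CPM (median 3.42). The libraries frozen after ethanol lay below every starting library, and frozen water replicates 2 and 6, at 8.18 and 10.1 CPM, reached into the starting range. Its log2 change from the start was -2.56 ± 0.49 (SE; edgeR adjusted p = 0.000211) after water and freezing and -3.11 ± 0.50 (edgeR adjusted p = 1.51e-05) after ethanol and freezing.

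For Bevul.9G180900 the log2 change from the start was -1.82 ± 0.28 in the seedlings frozen after water (edgeR adjusted p = 8.31e-06) and -1.54 ± 0.28 in those frozen after ethanol (edgeR adjusted p = 7.91e-05). For Bevul.7G100700 the changes were -1.37 ± 0.22 (edgeR adjusted p = 1.62e-05) and -1.14 ± 0.22 (0.000189). Bevul.7G004700 (chromosome 7, 492418 to 497802, minus strand) read 49.1 to 106.4 CPM before and 123.03 to 157 after water. It read 83.2 to 181 CPM after ethanol and 30.7 to 59.8 and 26.2 to 66.0 CPM in the frozen groups. It changed by -1.10 ± 0.20 (edgeR adjusted p = 7.74e-05) and -1.29 ± 0.20 (7.08e-06). Bevul.8G026000 (chromosome 8, 3671223 to 3674639) had medians of 9.69 CPM before, 23.9 after water, 19.7 after ethanol, and 5.63 and 4.27 after freezing. It changed by -1.29 ± 0.33 (edgeR adjusted p = 0.00516) and -1.56 ± 0.33 (0.000718).

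Several calls beyond these 5 were weaker. Of the 10 and 15 calls, 6 and 8 held under each of 18 other settings or left-out libraries, among them both calls of all 5 genes above. Also among the 8 was Bevul.7G135800, at -1.53 ± 0.34 after ethanol and freezing (edgeR adjusted p = 0.00102). Bevul.7G090100 was another, at -2.33 ± 0.65 (edgeR adjusted p = 0.00976, up to 0.0480 in the other settings), with few reads when frozen. Neither was called after water and freezing. Of the pair of neighbours, Bevul.9G104700 changed by -0.73 ± 0.22 after water and freezing (edgeR adjusted p = 0.0199), a call lost without starting replicates 1, 4 or 5 or frozen water replicates 2 or 4, and with only the groups compared, where the adjusted p reached at most 0.0775. After ethanol and freezing it changed by -0.71 ± 0.22 (edgeR adjusted p = 0.0241), lost without starting replicates 1, 4 or 5 or frozen ethanol replicates 4 or 5, with at most 0.0712. Its neighbour Bevul.9G104800 changed by -0.74 ± 0.22 after ethanol and freezing (edgeR adjusted p = 0.0200), lost without starting replicate 1 or frozen ethanol replicate 2 and with only the groups compared, with at most 0.117. Bevul.8G152000 changed by -0.54 ± 0.16 after water and freezing (edgeR adjusted p = 0.0214), lost without starting replicates 1 or 5 or frozen water replicates 2 or 3 and with only the groups compared, with at most 0.0890. Bevul.9G025400 changed by -2.86 ± 0.97 after ethanol and freezing (edgeR adjusted p = 0.0401), although its medians of 8.98 and 7.98 CPM were close. That call was lost with the replicate block and without starting replicates 1 or 3, which held its highest values, or any of frozen ethanol replicates 2 to 6, with an adjusted p of up to 0.176. At the other end, Bevul.8G042900 changed by -0.20 ± 0.17 and -0.30 ± 0.17 (edgeR adjusted p = 0.536 and 0.298).

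**Figure D2:**
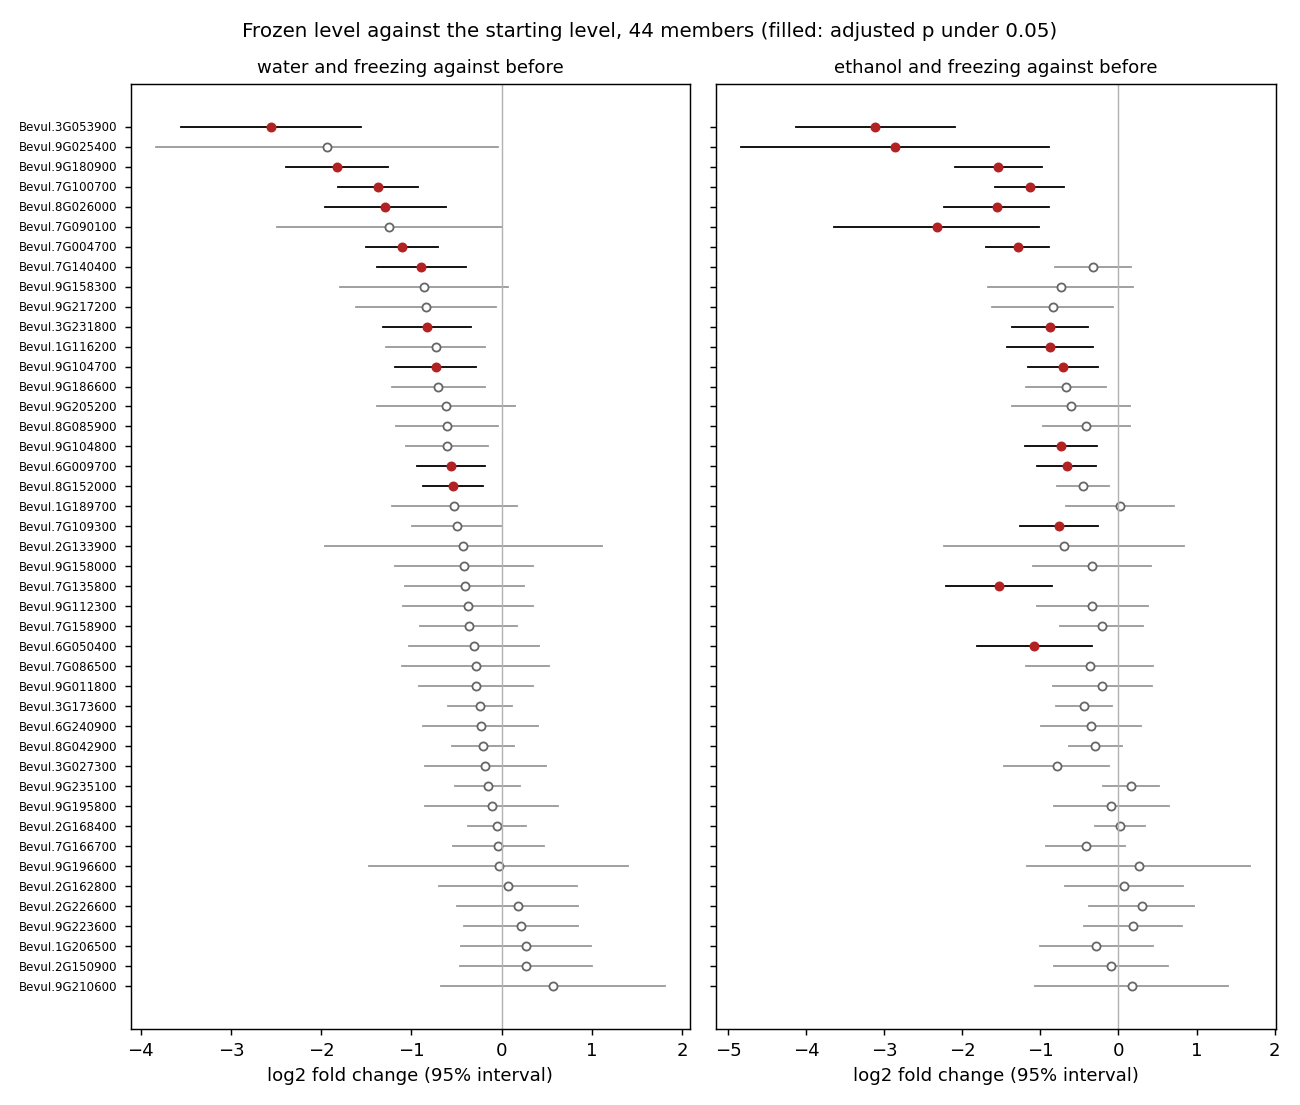
Log2 fold change of the frozen groups against the start for all 44 members, left after water and right after ethanol, with 95% intervals from the edgeR model of 30 libraries; filled points have an adjusted p under 0.05. The 10 filled points at left and 15 at right all lie below 0, led by Bevul.3G053900 at -2.56 and -3.11.

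No difference between the frozen groups was detected in a member. Against 0.0212% of 14128 genes called higher and 0.0849% called lower after ethanol and freezing than after water and freezing, edgeR called 0 of the 44 members in either direction, and DESeq2 also called 0. With background shares this low, 0 of 44 is near the background and is not read as a result about the members. The limits on both falls and on ethanol against water also entered the choice, so this contrast is not independent of it. The unadjusted p was under 0.05 for 3 members, and the lowest adjusted p was 0.455. This was for Bevul.7G135800, at -1.12 ± 0.33 on the log2 scale, with medians of 2.35 CPM against 5.46 CPM. The median log2 difference over members was -0.04 with a median SE of 0.32, and for 30 of the 44 the 95% interval lay within 1 log2 unit of 0. The other intervals reach further, so a difference of more than 1 log2 unit is not excluded for those genes. The response to freezing itself, ethanol against water, was tested as the difference of both changes. It was called in 0 members with edgeR, as in 0.0% of the 14128 genes in each direction, and in 0 with DESeq2. No member had an unadjusted p under 0.05, with a median SE of 0.45. For 15 of the 44 the 95% interval of this difference lay within 1 log2 unit of 0. The choice of members used both changes and left out genes that fell in only 1 of them. The 0 calls therefore do not show that the responses are alike.

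The members were not spread evenly over the genome. Chromosome 9 holds 16 of the 44, or 36.4%, where it holds 16.5% of the 6256 genes and 23.5% of the 472 that were higher after both pretreatments. Of the 16, 10 lie in the stretch described below, which holds 310 of the 6256 genes and 45 of the 472. Most of those 10 vary together between libraries, so they need not have met the rule independently of each other. Chromosome 7 holds 9 members, or 20.5% against 11.5% of the 6256 genes. Chromosome 2 holds 5, or 11.4% against 17.0%. Chromosomes 3 and 8 hold 4 each, or 9.09% against 9.39% and 8.32%. Chromosomes 1 and 6 hold 3 each, or 6.82% against 8.27% and 9.32%. Chromosomes 4 and 5 hold 0 of the 44, though they hold 41 and 42 of the 472. There are 20 members on the plus strand and 24 on the minus strand, and 1, Bevul.9G223600, overlaps a neighbouring gene, so its count is uncertain. The median span of a member was 3391 bp against 4342 bp for the 6256 genes.

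**Figure D3:**
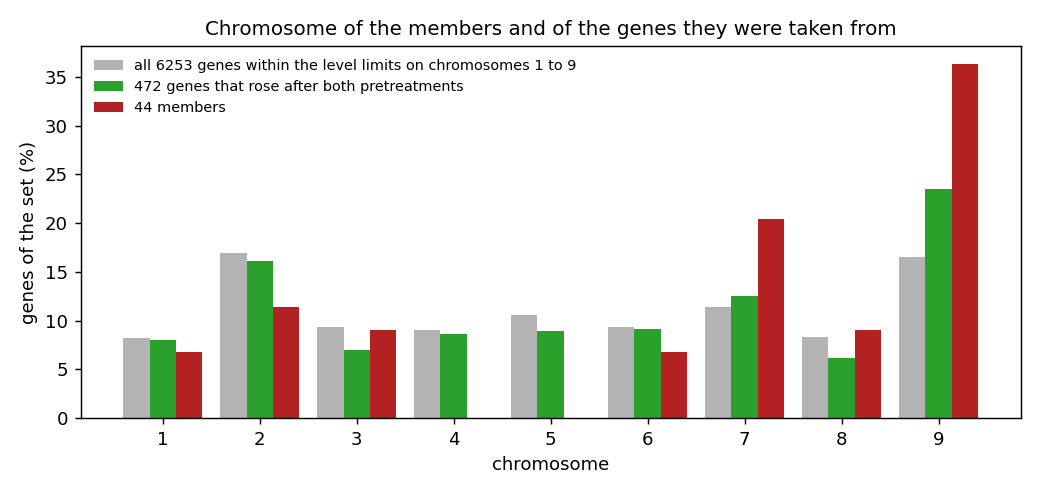
Share of 3 sets of genes on each of the 9 chromosomes, in percent of the set: the genes within the level limits, the 472 higher after both pretreatments and the 44 members. Chromosome 9 holds 36.4% of the members and 16.5% of the first set, and chromosomes 4 and 5 hold no member.

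On chromosome 9, 10 members follow each other from Bevul.9G158000 to Bevul.9G223600 (46963127 to 54184300). Most of them tended to differ between libraries of the same group in the same way. This stretch was picked out after the values were seen, so what follows is a description. Each library's deviation from its group mean was taken on the log2(CPM + 1) scale and correlated between members over the 30 libraries, which share their library totals. Within the stretch the 45 pairs had a median Pearson r of 0.61, from 0.02 to 0.87, and 30 pairs, or 66.7%, lay above 0.5. Among the 561 pairs with neither gene in the stretch the median was 0.07 and 23 pairs, or 4.10%, lay above 0.5. Between the stretch and the other members, 340 pairs had a median of 0.10. The highest value was that of Bevul.9G158000 and Bevul.9G195800, which start 3982294 bp apart. Bevul.9G217200 and Bevul.9G180900 followed the rest of the stretch less closely. Their r with its other members ran from 0.02 to 0.61 and from 0.29 to 0.59.

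Most genes of the stretch that are not members did not follow the 10. Of the 300 other genes within the level limits there, with a median r of 0.15, 49, or 16.3%, had an r above 0.5 with the mean deviation of the 10 members, and 15, or 5.0%, had an r below -0.5. Elsewhere on chromosome 9 the shares were 4.32% and 1.39% of 718 genes, and on the other chromosomes 0.443% and 0.636% of 5191. The labels name no cultivar and do not say how many seedlings a library holds or whether they share a genotype. Whether differences between the seedlings sampled enter the rises and falls of the 10 members was not tested.

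**Figure D4:**
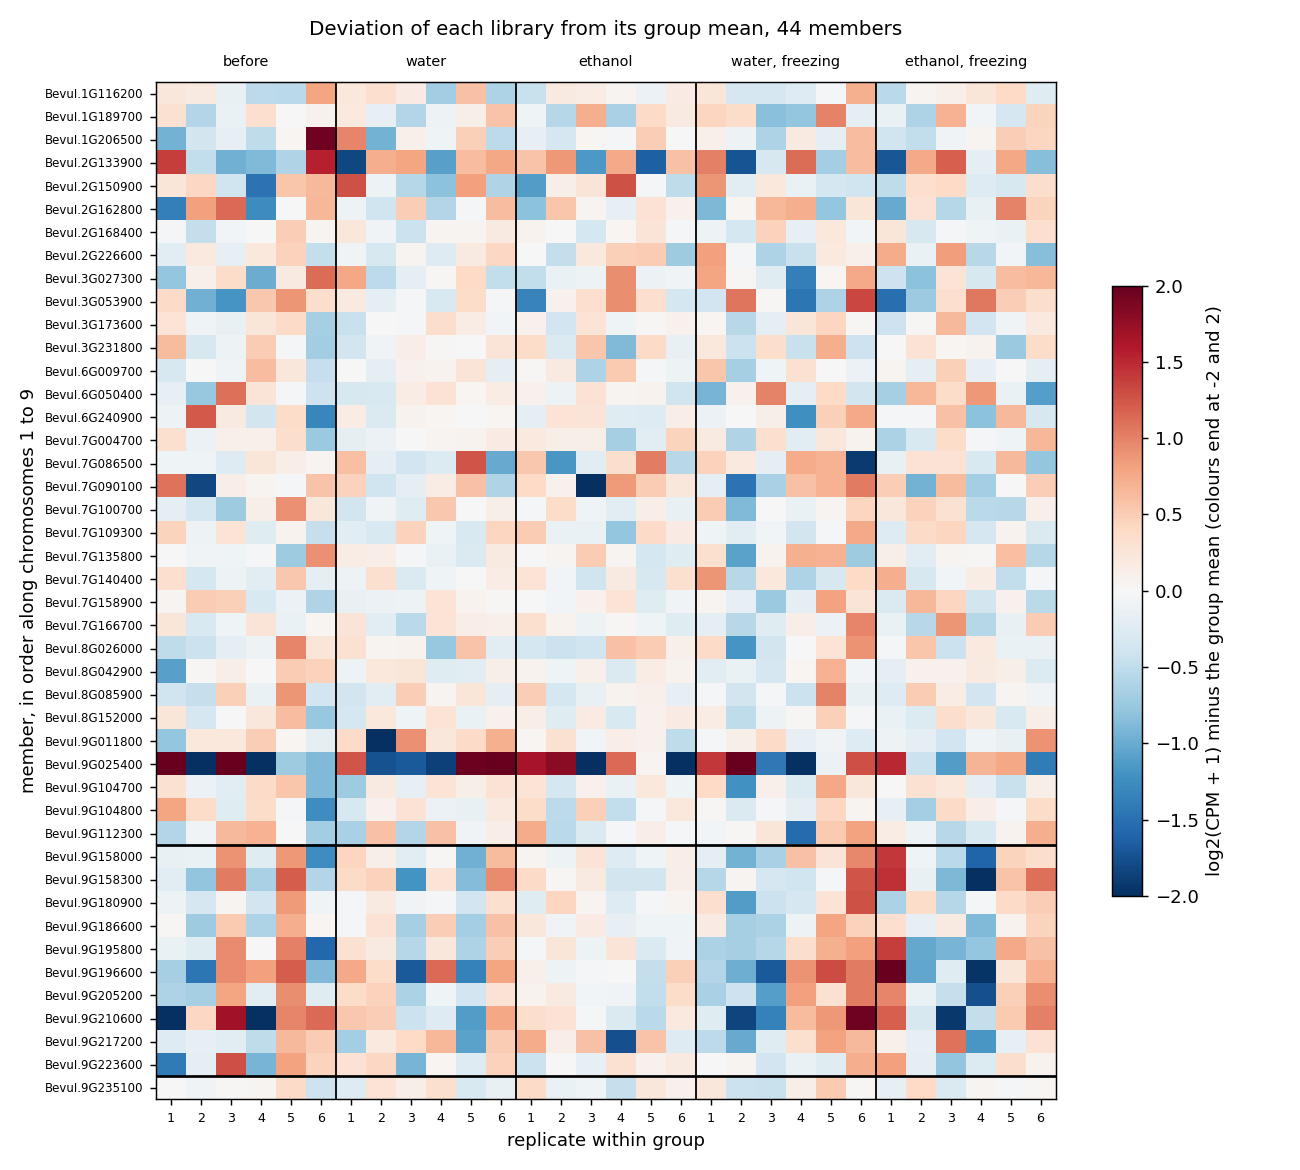
Deviation of each library from its group mean on the log2(CPM + 1) scale for the 44 members, in order along the chromosomes, with colours ending at -2 and 2; black lines enclose the 10 members of the chromosome 9 stretch. Inside the lines most members of a column share a colour in some libraries, as in frozen water replicate 6 and in frozen ethanol replicate 1, where Bevul.9G180900 is the exception.

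Single genes of the stretch show which libraries these were. Bevul.9G158300 (46983107 to 46986083) read 34.2 and 38.6 CPM in starting replicates 3 and 5 and 8.86 to 13.6 CPM in the other 4. It read 10.8 and 13.8 CPM in water replicates 3 and 5 and 31.8 to 50.9 CPM in the other 4. After ethanol all 6 libraries lay between 22.8 and 38.9 CPM. In the frozen groups it read 27.8 CPM in water replicate 6 against 7.05 to 11.5 in the rest, and 1.58 to 29.4 CPM over the ethanol libraries. Starting replicates 3 and 5 were thus as high as the pretreated libraries, and water replicates 3 and 5 as low as the starting ones. Bevul.9G196600 (51049712 to 51055035), further along, read 6.60 and 8.12 CPM in the same starting replicates, but 5.99 CPM in starting replicate 4 as well, and 0.4505 to 1.48 CPM in the other 3. It read 1.42 and 2.03 CPM in the same water replicates and 8.94 to 15.9 CPM in the other water libraries.

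The mean of the 10 members, relative to each gene's own mean over all libraries, ran from -0.84 to 0.64 before pretreatment and from -0.28 to 1.07 after water on the log2 scale. It ran from 0.51 to 0.89 after ethanol, from -1.25 to 0.52 after water and freezing, and from -1.58 to 0.46 after ethanol and freezing. For the other 34 members the ranges were -0.47 to -0.06, 0.47 to 0.89, 0.56 to 0.77, -0.79 to -0.26 and -0.74 to -0.37. In those 34 the unfrozen pretreated libraries lay above all others, an order that the choice of members favours. In the stretch the groups overlapped. The stretch was picked for members that vary together within groups, which widens the spread of their mean, so nothing is read from this contrast. The deviations of both sets had an r of 0.20 with each other over the 30 libraries. Of the 10 and 15 calls of frozen members below the start, 1 in each comparison was in the stretch, that of Bevul.9G180900, and 9 and 14 were among the other 34. The median log2 change from the start after water and freezing was -0.52 in the stretch and -0.42 in the other members. After ethanol and freezing it was -0.48 and -0.45, so fewer calls in the stretch do not mean smaller changes. With TMM-scaled levels the rule kept 8 of the 10 and 26 of the 34.

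**Figure D5:**
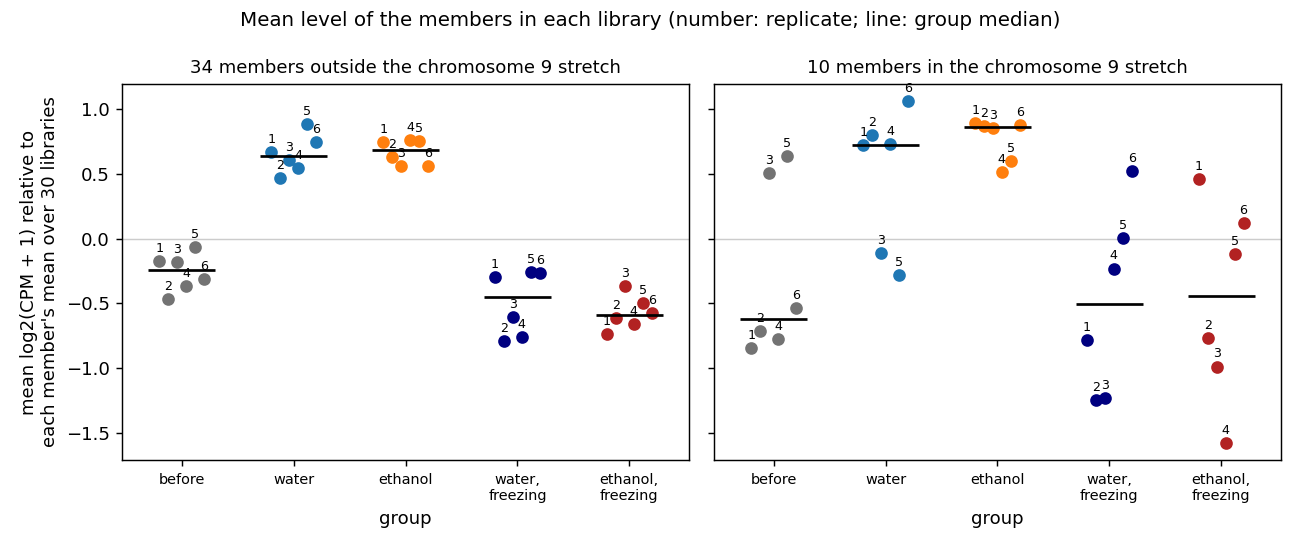
Mean level of the members in each library relative to their means over all 30 libraries, on the log2(CPM + 1) scale, left for the 34 members outside and right for the 10 inside the chromosome 9 stretch; numbers are replicates and lines are group medians. At left the water and ethanol libraries lie at 0.47 or above and the rest at -0.06 or below; at right starting replicates 3 and 5, frozen water replicates 4 to 6 and frozen ethanol replicates 1, 5 and 6 all lie above the lowest water library, at -0.28.

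Over all 44 members the spread inside groups was wider than usual in 3 of the groups. The median coefficient of variation was 41.8% before pretreatment, 45.3% after water and freezing and 37.8% after ethanol and freezing, where the 6256 genes had 27.4%, 27.0% and 25.0%. After water it was 28.0% against 25.6%, and after ethanol 22.0% against 25.8%. The members are lowest in the 3 groups where they spread most; the part of the lower level in this was not tested.

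Among 5377 genes outside the 44 with a mean of at least 10 CPM, those most like the mean course of the members over the 30 libraries were found by Pearson r on the log2(CPM + 1) scale. Bevul.8G065000 and Bevul.9G046800 both had an r of 0.917, Bevul.2G025400 had 0.910, Bevul.9G043600 had 0.909 and Bevul.8G143800 had 0.892. All 5 failed the rule by a smaller rise over at least 1 of the pretreatments. Bevul.9G046800, for instance, had medians of 326 CPM before, 463 after water, 478 after ethanol, and 238 and 203 CPM after freezing. Its ratios to the start were 1.42 and 1.47. Bevul.2G025400 had medians of 1014, 1289, 1336, 856 and 828 CPM in the same order.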

How the data were processed

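The submitters' processing notes name bcl2fastq, Trimmomatic, HISAT2, featureCounts and DESeq2; their versions, the order of steps and the use of strand in counting are not given here. The build named in those notes is TAIR10, but gene positions are on the beet assembly EL10.2, per the file headers. Libraries were made with Lasy-Seq from 200 ng of RNA, per the labels' protocols. The deposited table holds the authors' raw read counts per gene; the second table, of scaled values, was not used.

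Levels are counts divided by the library total, in CPM. Tests used edgeR 4.0.16 in R 4.3.3 on the counts: filterByExpr (14128 genes, 99.92% of reads, all 44 members), TMM factors, a quasi-likelihood model with 5 group means over 30 libraries, and Benjamini-Hochberg adjustment with a threshold of 0.05. Intervals cover 95%. DESeq2 1.42.0, other scalings, filters, limits and each left-out library were alternatives. The fit was tested on simulated counts. Tables were made with Python 3.11.15, numpy 2.4.6 and pandas 2.3.3.

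The rule's minimum was applied to medians without the added 1; with it, 45 genes pass. RefSeq genes were matched where each covered at least 0.5 of the other. Promoter and protein sequences were not analysed here.

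The members were chosen with earlier results of these data known. Genes named are the 8 most abundant members, the 6 with the largest rise and fall, up to 5 called members per direction and comparison, 3 on either side of the limits, neighbours, and the 5 genes most like the mean course. The other genes named in the chromosome 9 stretch, and Bevul.1G206500, were chosen after their values were seen.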

Additional observations from a re-analysis of the deposited data

Results flagged for a closer look

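Among the 20 named members, 100 groups of 6 libraries were examined for a library far from the others, and 7 had one. Chance gives about 1 in 20 only for independent, normally distributed values, which CPM values need not be. Bevul.8G042900 read 1955 CPM in frozen water replicate 5, with the other 5 libraries at 962 to 1245. Bevul.8G085900 read 15.0 CPM in the same library, with the others at 4.98 to 6.92. Frozen water replicate 6 read 136 CPM for Bevul.9G223600, with the others at 63.1 to 85.1, and 27.8 CPM for Bevul.9G158300, with the others at 7.05 to 11.5. Frozen ethanol replicate 1 read 20.6 CPM for Bevul.9G196600, with the others at 0.106 to 5.99. Starting replicate 5 read 453 CPM for Bevul.9G180900, with the others at 192 to 259. Starting replicate 6 read 10.8 CPM for Bevul.7G135800, with the others at 2.82 to 5.29. All 7 were high values.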

How the results depend on the processing

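Which genes are members depends on the settings. The number was 7 with a rise of at least 2 and a fall to at most 0.5, and 37 to 53 over the 30 left-out libraries. It was 55 with TMM scaling, 57 with RLE scaling, 31 with group means, 53 without and 32 with 5 in place of 1 as the added value, and 56 and 34 with minimums of 5 and 20 CPM. Members lower than the start numbered 7 to 13 over left-out libraries after water and freezing (7 without starting replicate 1 or frozen water replicate 2) and 11 to 17 after ethanol and freezing. With DESeq2 they numbered 12 and 17, and with only the groups compared 7 and 13. Members higher than the start after water and freezing numbered 0 to 1; the 1 was Bevul.1G206500 without starting replicate 6 (log2 change 1.05, edgeR adjusted p = 0.00724), a library at 86.3 CPM, where with it the adjusted p was 0.741. Higher calls after ethanol and freezing, calls between the frozen groups and calls of the difference in freezing response stayed at 0 throughout. In repeats of single calls, 397 were kept and 53 lost, and none turned. Replicates of equal number showed no shared deviation over the genes tested (r of -0.04 to 0.05). The labels do not say whether they share more than a number. With the replicate block 11 and 14 members were lower than the start. Members with few reads are limited by depth, as 7 had under 10 reads in some library.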
